A study of Homo sapiens with 6 samples.

Results

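Of 58174 genes listed in the deposited expression table, 48 were followed here as a set of splicing regulators: the CLK kinases, the SR proteins (named SRSF), 9 hnRNP proteins, and SR-related, helicase, kinase and splice site factors. They were listed by gene name with earlier results of these data known, and each name matched exactly 1 row. The label names Huh-7 cells, a line long established from a human liver cancer, and they were sampled 48 h after lipid transfection. In 3 samples the cells had received miR-27a-3p mimics, synthetic RNAs made to act as the mature microRNA. The other 3 samples had received a negative control, labelled NC. No cisplatin treatment is named in the labels, although the series title concerns cisplatin sensitivity. Whether samples of 1 group were separate cultures is not stated, so the p-values reflect the spread among these samples alone, and that spread may be technical.

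SR proteins bind exonic enhancers through RNA recognition motifs and recruit the splicing machinery through a domain rich in arginine and serine. CLK kinases phosphorylate that domain in the nucleus and release SR proteins from nuclear speckles, while SRPK kinases phosphorylate it in the cytoplasm and promote import. Proteins of the hnRNP group coat nascent RNA and often oppose SR proteins at splice sites. Many genes of both kinds limit their own expression through poison exons or introns that stay in nuclear transcripts. A value per gene, as deposited, does not tell such transcripts from coding ones.

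The transfected microRNA acts through its seed, bases 2 to 8, shown in capitals in the RefSeq sequence (GRCh38.p14).

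hsa-miR-27a-3p: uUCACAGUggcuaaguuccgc

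An 8mer match, ACTGTGAA, was found in the longest annotated 3′ UTR of 3 of the 48 genes, and the sites of all 3 are shown. They belong to the members with the largest and the second largest fall and to 1 whose difference did not pass the test. The match is in capitals, with the surrounding bases in lower case, on the strand of the gene.

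NKTR: ctgccaagcatagaACTGTGAAggagaa

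PNISR: aaggaaataaatcaACTGTGAAtaaatg

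HNRNPA1: agcacattatttgtACTGTGAAtataaa

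The windows lie at chr3:42646345-42646372 on the plus strand, chr6:99398955-99398982 on the minus strand and chr12:54286459-54286486 on the plus strand (GRCh38, GENCODE 29), each within a 3′ UTR. A match is a description of the letters in the window and not a shown site of action.

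Expression is given as FPKM, fragments scaled for the length of the gene and the number of fragments in the sample. Read numbers are not given, but values pile up at a level that would be 1 fragment, which implies 25127787 to 31041047 fragments in mimic samples and 16984242 to 21147179 in NC samples. Of the low values, 8.80% to 12.4% lay within 1% of a whole multiple of that level, values at the level itself included. The level is therefore not shown to be 1 fragment, the depths are uncertain and counts were not recovered. Mitochondrial genes held 14.6% to 38.9% of the summed FPKM in mimic samples and 16.9% to 32.8% in NC samples, with sample 3 highest in both groups. Genes at 1 FPKM or more numbered 13007 to 13250 in mimic samples and 15109 to 15494 in NC samples, and genes listed at 0 numbered 31848 to 32523 in mimic samples and 28467 to 29119 in NC samples. Defining markers of hepatocytes were absent: 18 of 20 stayed below 1 FPKM in every sample, ALB and AFP among them, 6 were listed at 0 in all samples, and the summed level of the list was 7.10 to 9.30 FPKM in mimic samples and 12.0 to 12.8 FPKM in NC samples. FOXA1 made up most of that sum. These values do not bear out the liver origin that the label gives, and the identity of the cells was not tested. Of 8 stromal markers 6, of 7 leukocyte markers 5, of 5 endothelial markers 4 and of 7 basal or squamous markers 6 also stayed below 1 FPKM. The 4 sums differed between groups, in each list mainly through 1 gene. They were 7.84 to 10.5 FPKM in mimic samples and 17.8 to 18.4 FPKM in NC samples for the stromal list (mainly COL1A1). For the leukocyte list (mainly CD68) they were 11.3 to 19.4 FPKM in mimic samples and 8.81 to 10.6 FPKM in NC samples. The basal list (mainly SFN) summed to 336.0 to 347 FPKM in mimic samples and 203 to 220.3 FPKM in NC samples, and the endothelial list (mainly CDH5) to 0.535 to 0.854 FPKM in mimic samples and 1.42 to 2.94 FPKM in NC samples. Their part in the results was not tested.

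Most of these splicing genes were lower in mimic samples: 8 of 10 tested SR protein genes and 11 of 13 SR-related genes were called lower, against 2 of 9 hnRNP genes. A gene was called when its Benjamini-Hochberg adjusted p from limma, over the 14439 genes whose mean reached 1 FPKM, was below 0.05. Log2 fold changes compare mimic with NC samples on the log2(FPKM + 0.5) scale, with their standard error (SE). Of 47 members tested, 28 were called lower and 5 higher, and SRSF12 was not tested because it was listed at 0 to 0.0453 FPKM in mimic samples and 0 to 0.173 FPKM in NC samples. The members called lower are 59.6% of those tested, against 39.6% of all genes tested and 32.7% of protein-coding genes. The members called higher are 10.6%, against 12.0% of all genes and 14.0% of protein-coding genes. In either direction 51.6% of all genes were called, so a single call means little here without its size. Members called lower by at least 1 on the log2 scale numbered 17 of 47 (36.2%), against 18.5% of all genes. Samples of the groups did not overlap for 36 of 47 members (76.6%), against 60.5% of all genes. Since the members were listed with results of these data known, these shares describe the set and do not test it. In bulk RNA, fewer cells with a transcript and less of it per cell cannot be told apart.

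The scale between samples bears on every direction below. The median log2 fold change was -0.29 over all genes tested and -0.49 over the members. After median-of-ratios scaling, which sets the typical gene equal between samples, these medians were 0.01 and -0.17. On that scale 19 members were lower and 12 higher, against backgrounds of 27.4% lower and 26.9% higher over all genes. Values after that scaling are given beside the deposited ones where the call differs. The plot of fold changes shows both for every tested member.

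**Figure D1:**
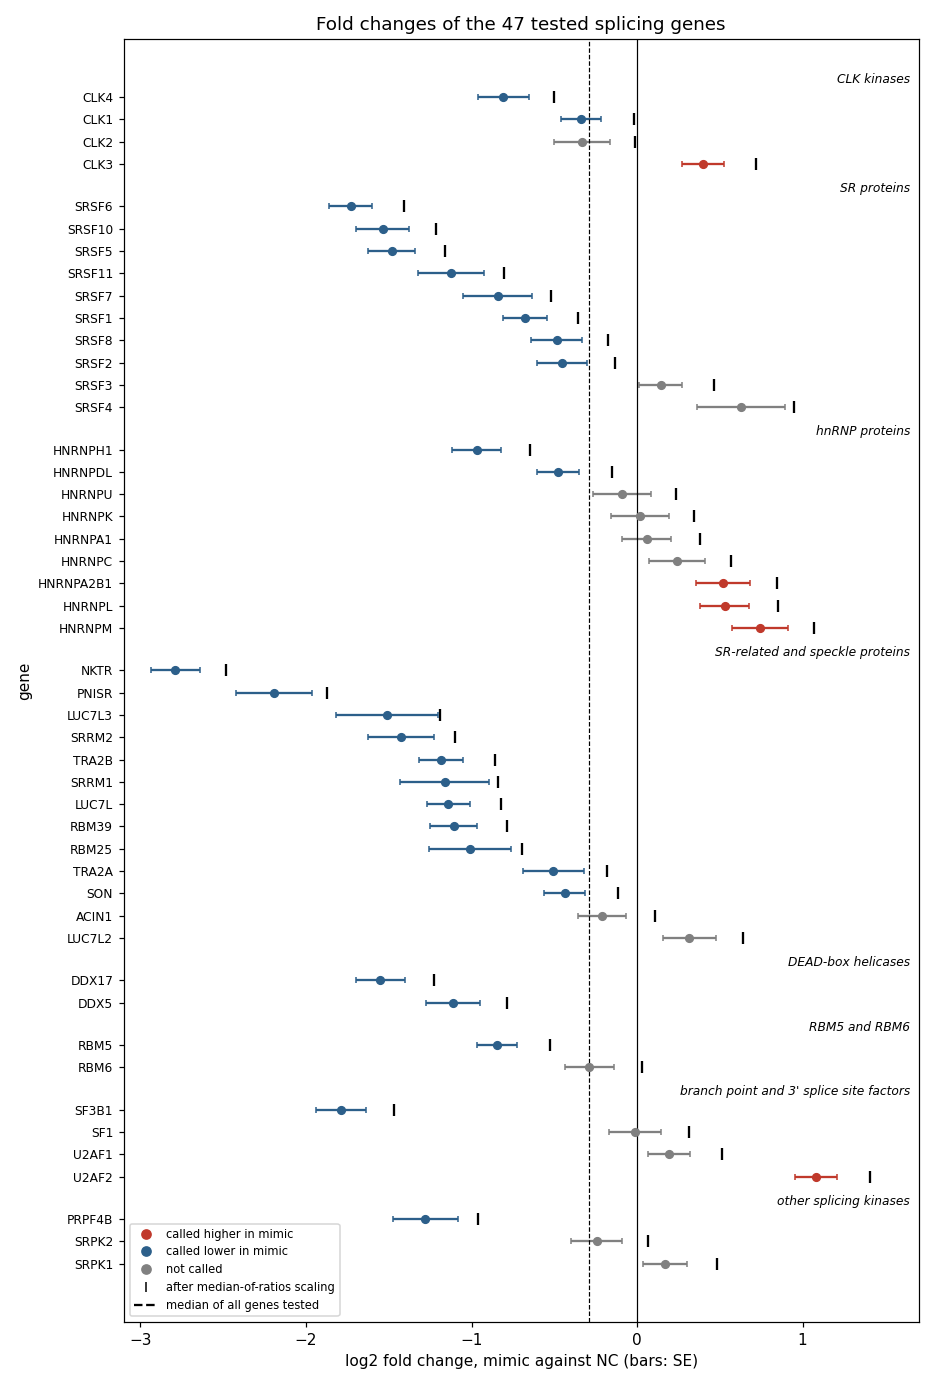
Log2 fold change of each of the 47 tested members, mimic against NC (points, with SE bars), grouped by class and coloured by call, with the value after median-of-ratios scaling as a vertical tick. The dashed line marks -0.29, the median of all genes tested. NKTR at -2.79 is lowest and U2AF2 at 1.08 highest.

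The 4 CLK kinases moved in different directions, with 2 lower, 1 higher and 1 not called. CLK4 had 4.58, 6.17 and 5.28 FPKM in mimic samples, against 9.06, 9.04 and 11.0 FPKM in NC samples. The log2 fold change was -0.81 (SE 0.15, adjusted p = 0.00295), and every mimic sample lay below every NC sample. After quantile normalization its call was lost (log2 fold change -0.45, adjusted p = 0.0531). CLK1, a close relative of CLK4, had 26.8, 27.7 and 24.4 FPKM in mimic samples, against 34.3, 33.1 and 32.7 FPKM in NC samples. The groups did not overlap, but the difference was small, at -0.34 (SE 0.12, adjusted p = 0.0437), and it was lost when any 1 of the 6 samples was left out (adjusted p = 0.0528 to 0.145) and after median-of-ratios scaling (-0.02). CLK3 was called higher, with 46.5, 51.9 and 51.4 FPKM in mimic samples, against 39.9, 38.6 and 34.7 FPKM in NC samples. Its log2 fold change was 0.40 (SE 0.13, adjusted p = 0.0286), and the call held after median-of-ratios scaling (0.72). It was lost when mimic sample 2 or 3 or any NC sample was left out (adjusted p = 0.0604 to 0.0895). CLK2 had 23.0, 25.6 and 26.5 FPKM in mimic samples, against 27.1, 29.0 and 40.2 FPKM in NC samples, and its log2 fold change of -0.33 (SE 0.17, adjusted p = 0.134) did not pass the test, although the groups did not overlap. NC sample 3 stood above the other NC samples for CLK2, and after correction for GC content and transcript length the gene was called lower (-0.57, adjusted p = 0.0308).

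Among 10 tested SR protein genes 8 were called lower and none higher, and their median log2 fold change was -0.76 (-0.44 after median-of-ratios scaling, where 5 were lower and 2 higher). SRSF6, a splicing enhancer factor, had 24.9, 24.7 and 21.9 FPKM in mimic samples, against 86.1, 72.3 and 82.5 FPKM in NC samples. Its log2 fold change of -1.73 (SE 0.13, adjusted p = 5.64e-05) was the lowest of the family, and the mean mimic level was 0.297 of the mean NC level. SRSF10, which represses splicing when dephosphorylated, had 35.4, 39.5 and 31.0 FPKM in mimic samples, against 115, 86.3 and 109.5 FPKM in NC samples. SRSF5, a close relative of SRSF6, had 28.9, 38.7 and 33.6 FPKM in mimic samples, against 96.1, 94.4 and 93.1 FPKM in NC samples. The log2 fold changes were -1.54 (SE 0.16, adjusted p = 0.00018) for SRSF10 and -1.48 (SE 0.14, adjusted p = 0.000128) for SRSF5, and in both genes the highest mimic sample was far below the lowest NC sample.

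SRSF11, a regulator of alternative exons, had 30.4, 40.0 and 37.4 FPKM in mimic samples, against 73.9, 63.4 and 103 FPKM in NC samples. The groups stood apart, with a log2 fold change of -1.12 (SE 0.20, adjusted p = 0.00212), although the NC samples spread widely. SRSF7, an SR protein with a zinc knuckle, had 31.5, 44.2 and 42.5 FPKM in mimic samples, against 90.8, 67.6 and 56.6 FPKM in NC samples. SRSF1, the founding member of the family, had 60.9, 61.3 and 52.8 FPKM in mimic samples, against 101, 92.5 and 87.4 FPKM in NC samples. Neither gene's groups overlapped, and the log2 fold changes were -0.84 (SE 0.21, adjusted p = 0.00985) for SRSF7 and -0.68 (SE 0.13, adjusted p = 0.00334) for SRSF1. The SRSF7 call was lost after median-of-ratios scaling (-0.52, adjusted p = 0.0618), while that of SRSF1 held (-0.35, adjusted p = 0.0156).

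Smaller differences were seen for SRSF2, a classical speckle marker, and SRSF8, a retrogene of SRSF2. SRSF2 had 42.7, 37.6 and 44.9 FPKM in mimic samples, against 64.3, 48.6 and 60.1 FPKM in NC samples, a log2 fold change of -0.46 (SE 0.15, adjusted p = 0.0341). SRSF8 had 10.8, 8.77 and 7.57 FPKM in mimic samples, against 13.4, 12.2 and 12.5 FPKM in NC samples, a log2 fold change of -0.49 (SE 0.15, adjusted p = 0.0276). Both calls were fragile. After median-of-ratios scaling they were lost (-0.13 for SRSF2 and -0.17 for SRSF8). Without mimic sample 2, NC sample 1 or NC sample 3 the SRSF2 call was lost (adjusted p = 0.115, 0.133 and 0.0892). That of SRSF8 was lost in 5 of the 6 fits that leave out 1 sample, all but the fit without mimic sample 1 (adjusted p = 0.00836 to 0.0917 over the 6).

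The other two tested SR genes were not called. SRSF3, which also acts in mRNA export, had 47.6, 52.9 and 54.7 FPKM in mimic samples, against 51.0, 43.8 and 45.7 FPKM in NC samples. Its groups overlapped, with a log2 fold change of 0.14 (SE 0.13, adjusted p = 0.387), and on the median-of-ratios scale it was called higher (0.46, adjusted p = 0.0187). SRSF4, another relative of SRSF5 and SRSF6, had 45.0, 50.7 and 23.6 FPKM in mimic samples, against 24.8, 23.7 and 24.3 FPKM in NC samples. Mimic sample 3 lay just below the NC samples, and the other two mimic samples were far above them. The log2 fold change was 0.63 (SE 0.26, adjusted p = 0.0793), and without mimic sample 3 it was 0.96 (adjusted p = 0.00157). With median-of-ratios scaling SRSF4 was called higher too (0.95, adjusted p = 0.0106).

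**Figure D2:**
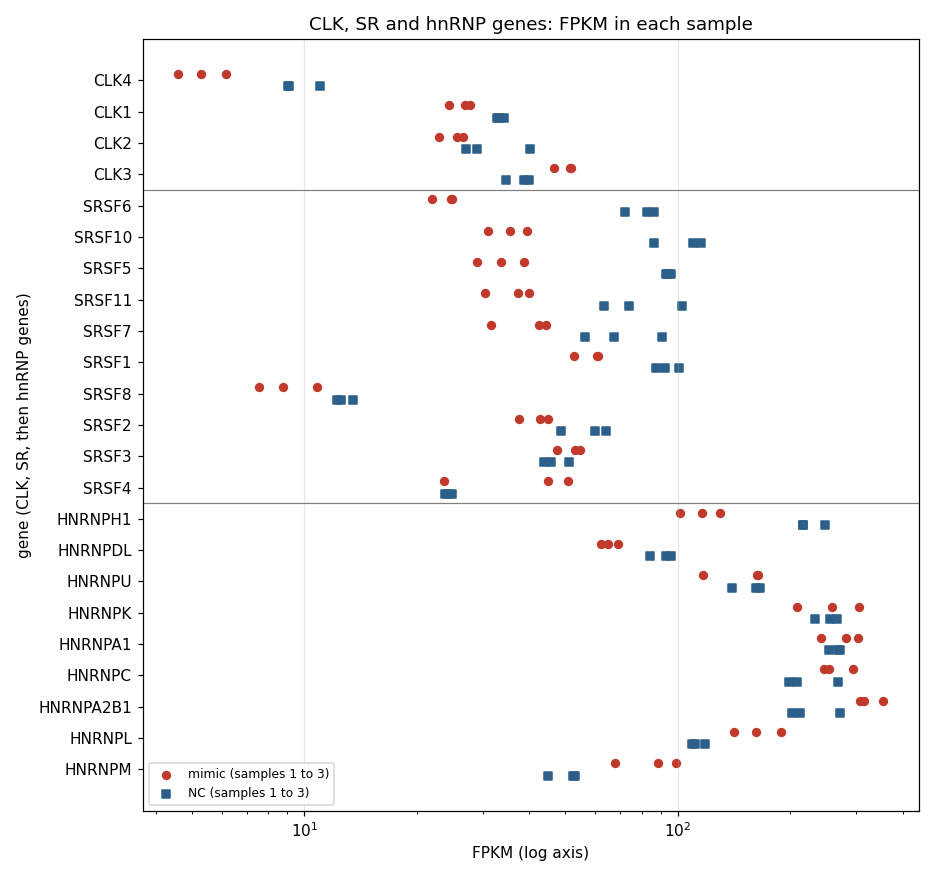
FPKM on a log axis for each tested CLK, SR and hnRNP gene, 1 point per sample, with mimic samples above NC samples in each row. For SRSF6 the mimic samples sit between 21.9 and 24.9 FPKM and the NC samples between 72.3 and 86.1 FPKM, whereas for HNRNPK the groups overlap.

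Of the 9 hnRNP genes 3 were higher, 2 lower and 4 not called, with a median log2 fold change of 0.06. After median-of-ratios scaling 5 were higher and 1 lower, with a median of 0.38. HNRNPM, a regulator of alternative exons, had 98.7, 88.3 and 67.9 FPKM in mimic samples, against 52.4, 53.0 and 44.8 FPKM in NC samples. HNRNPM differed by 0.74 (SE 0.17, adjusted p = 0.0067) and was called higher in all 18 alternatives tried. HNRNPL, which binds CA repeats, had 189, 162 and 141 FPKM in mimic samples, against 111, 109 and 118 FPKM in NC samples. HNRNPA2B1, a relative of HNRNPA1, had 316, 355 and 308 FPKM in mimic samples, against 272, 213 and 203 FPKM in NC samples. For both genes every mimic sample was above every NC sample, with log2 fold changes of 0.53 (SE 0.15, adjusted p = 0.0183) and 0.52 (SE 0.16, adjusted p = 0.0278) in that order. The HNRNPL call was lost without mimic sample 2 (adjusted p = 0.0546), NC sample 1 (0.0636) or NC sample 2 (0.0655), and after GC and length correction (0.28, adjusted p = 0.127). That of HNRNPA2B1 was lost without mimic sample 2 (adjusted p = 0.102), NC sample 2 (0.0999) or NC sample 3 (0.0908). Leaving out mimic sample 2 or NC sample 2 therefore left 1 hnRNP gene higher.

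HNRNPH1, which binds runs of guanines, went the other way, with 129.5, 116 and 102 FPKM in mimic samples, against 216, 216 and 249 FPKM in NC samples. The difference was -0.97 (SE 0.15, adjusted p = 0.00104), and it was called lower in all 18 alternatives tried. HNRNPDL, related to the AU-rich element binding protein hnRNP D, had 62.1, 69.0 and 65.0 FPKM in mimic samples, against 96.2, 84.4 and 93.0 FPKM in NC samples. Its fall was smaller, at -0.48 (SE 0.13, adjusted p = 0.0136), and its call was lost without NC sample 1 (adjusted p = 0.0661) and after median-of-ratios scaling (-0.15).

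For the 4 hnRNP genes that were not called the groups overlapped. HNRNPA1, a repressor of exon inclusion, had 303, 283 and 242 FPKM in mimic samples, against 254, 271 and 268 FPKM in NC samples. HNRNPC, which binds uridine tracts, had 246, 255 and 294 FPKM in mimic samples, against 199, 209 and 268 FPKM in NC samples. HNRNPK, which binds cytidine-rich RNA, had 306, 259 and 208 FPKM in mimic samples, against 255, 266 and 233 FPKM in NC samples. HNRNPU, a scaffold of the nuclear matrix, had 117, 163 and 164 FPKM in mimic samples, against 162, 139.9 and 166 FPKM in NC samples, and mimic sample 1 alone was below the NC samples. The log2 fold changes were 0.06 for HNRNPA1 (SE 0.15), 0.24 for HNRNPC (SE 0.17), 0.02 for HNRNPK (SE 0.17) and -0.09 for HNRNPU (SE 0.17). After median-of-ratios scaling HNRNPA1 and HNRNPC were called higher (0.38 and 0.57). The table lists 75 pseudogenes named after HNRNPA1, of which 8 reached 1 FPKM, and 9 named after HNRNPC, of which 3 did, so the assignment of reads to HNRNPA1 and HNRNPC is uncertain.

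The summed level of SR and CLK genes was lower in mimic samples, and that of hnRNP genes overlapped between the groups. The summed level of the 15 SR and CLK genes was 459, 509.7 and 458 FPKM in mimic samples, against 827, 715 and 793 FPKM in NC samples. The summed level of the 9 hnRNP genes was 1767, 1749 and 1593 FPKM in mimic samples, against 1617, 1561 and 1642 FPKM in NC samples. The ratio of both sums within a sample, which no scaling between samples can change, was 0.260, 0.291 and 0.287 in mimic samples, against 0.511, 0.458 and 0.483 in NC samples. The groups stood apart in the SR and CLK sum and in the ratio. A within-sample measure that gives each gene equal weight, the median log2 level of SR and CLK genes minus that of hnRNP genes, was -2.59, -2.04 and -2.32 in mimic samples, against -1.79, -2.17 and -1.98 in NC samples. Here the groups overlapped, because mimic sample 2 was above NC sample 2. The median log2 fold change of the tested SR and CLK genes minus that of the hnRNP genes was -0.64, and -0.65 after median-of-ratios scaling. The median log2 level of the SR and CLK genes was 4.97, 5.31 and 5.04 in mimic samples, against 5.85, 5.54 and 5.68 in NC samples, and after median-of-ratios scaling it was 5.07, 5.40 and 5.31 in mimic samples, against 5.63, 5.35 and 5.60 in NC samples. On the second scale the groups overlapped, again through mimic sample 2 and NC sample 2. No p-value is given for these summaries, since the members were listed with results of these data known.

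**Figure D3:**
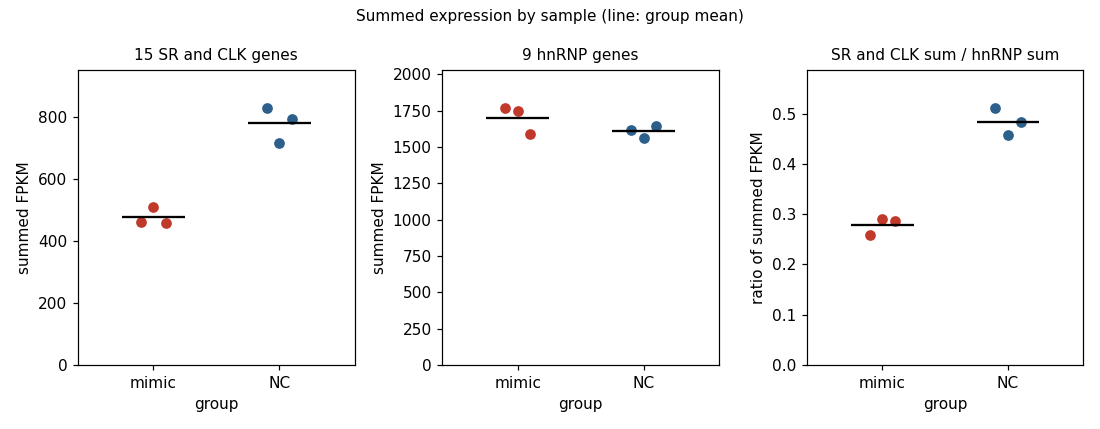
Summed FPKM of the 15 SR and CLK genes, summed FPKM of the 9 hnRNP genes and the ratio of the sums, 1 point per sample with the group mean as a line, mimic left of NC. The ratio is 0.260 to 0.291 in mimic samples and 0.458 to 0.511 in NC samples.

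SR-related and speckle proteins had 11 of 13 genes lower and none higher, and a median of -1.14 on the log2 scale (7 lower, 1 higher and a median of -0.82 after median-of-ratios scaling). NKTR, a cyclophilin with a domain rich in arginine and serine, had 4.66, 5.93 and 4.60 FPKM in mimic samples, against 40.7, 33.8 and 39.2 FPKM in NC samples. The fold change on the log2 scale was -2.79 (SE 0.15, adjusted p = 1.49e-05), and the mean mimic level was 0.134 of the mean NC level. PNISR, a serine- and arginine-rich speckle protein, had 14.4, 27.0 and 24.5 FPKM in mimic samples, against 98.4, 92.2 and 106 FPKM in NC samples. Its log2 fold change was -2.19 (SE 0.23, adjusted p = 0.000172), with mimic sample 1 well below the other mimic samples and all of them far below the NC samples. Both calls held in all 18 alternatives tried, and these are the genes whose 8mer sites are printed above. NKTR lies at chr3:42600614-42648741 on the plus strand and PNISR at chr6:99398051-99425331 on the minus strand (hg38).

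TRA2B, an SR-like activator of exon inclusion, had 33.1, 38.4 and 34.7 FPKM in mimic samples, against 86.9, 72.5 and 84.2 FPKM in NC samples. LUC7L, a relative of a yeast U1 snRNP protein, had 20.3, 19.4 and 17.7 FPKM in mimic samples, against 47.1, 40.8 and 40.7 FPKM in NC samples. RBM39, a coactivator related to U2AF2, had 97.0, 108 and 91.3 FPKM in mimic samples, against 232, 193 and 216 FPKM in NC samples. In each of these genes the groups stood clear of each other, with log2 fold changes of -1.18 (SE 0.13, adjusted p = 0.000253) for TRA2B, -1.14 (SE 0.13, adjusted p = 0.000244) for LUC7L and -1.11 (SE 0.14, adjusted p = 0.000438) for RBM39. All 3 calls held in all 18 alternatives tried.

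Of the others in this class, the speckle scaffold SRRM2 fell by 1.43 on the log2 scale, the coactivator SRRM1 by 1.16, the U1-associated LUC7L3 by 1.51 and RBM25, a regulator of alternative splice sites, by 1.01. The SRRM1 and RBM25 calls were lost after median-of-ratios scaling (-0.84, adjusted p = 0.0502, for SRRM1 and -0.70, adjusted p = 0.0737, for RBM25). SON, which like SRRM2 scaffolds speckles, differed by -0.44 (SE 0.12, adjusted p = 0.0177) and TRA2A, the paralog of TRA2B, by -0.51 (SE 0.18, adjusted p = 0.0485). Both calls were lost after median-of-ratios scaling (-0.11 for SON and -0.18 for TRA2A), that of SON also without NC sample 1 or 2 (adjusted p = 0.0835 and 0.0554) and that of TRA2A in every fit without 1 sample except that without mimic sample 2 (adjusted p = 0.0232 to 0.158 over the 6). TRA2A kept its call in only 4 of the 18 alternatives tried. ACIN1, a subunit of a complex that joins the exon junction complex, was not called (-0.21, SE 0.14). LUC7L2, at 0.32 (SE 0.16, adjusted p = 0.133), was called higher without mimic sample 1 (adjusted p = 0.0201) and after median-of-ratios scaling (0.64). The table also lists a readthrough gene that spans LUC7L2 on its strand, so reads may be split between them.

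Mimic sample 1 stood apart within its group for part of these genes. LUC7L3 had 35.1, 82.3 and 79.8 FPKM in mimic samples, against 176, 171 and 181 FPKM in NC samples. SRRM1 had 25.5, 47.5 and 54.9 FPKM in mimic samples, against 88.1, 84.4 and 102 FPKM in NC samples. SRRM2 had 109, 176 and 169 FPKM in mimic samples, against 381, 395 and 418 FPKM in NC samples. In all 3 genes mimic sample 1 was far below mimic samples 2 and 3, and PNISR, RBM25 and PRPF4B showed the same order. RBM25 had 7.48, 11.3 and 15.8 FPKM in mimic samples, against 20.1, 25.7 and 22.9 FPKM in NC samples. Mimic sample 1 was the lowest mimic sample for 21 of 47 members (44.7%), against 28.2% of all genes tested, with 11 of 24 among the other regulators, 7 of 14 among SR and CLK genes and 3 of 9 among hnRNP genes. Without mimic sample 1, 26 members were lower and 6 higher, and without sample 3 of both groups, the samples with the most mitochondrial signal, 22 were lower and 4 higher.

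**Figure D4:**
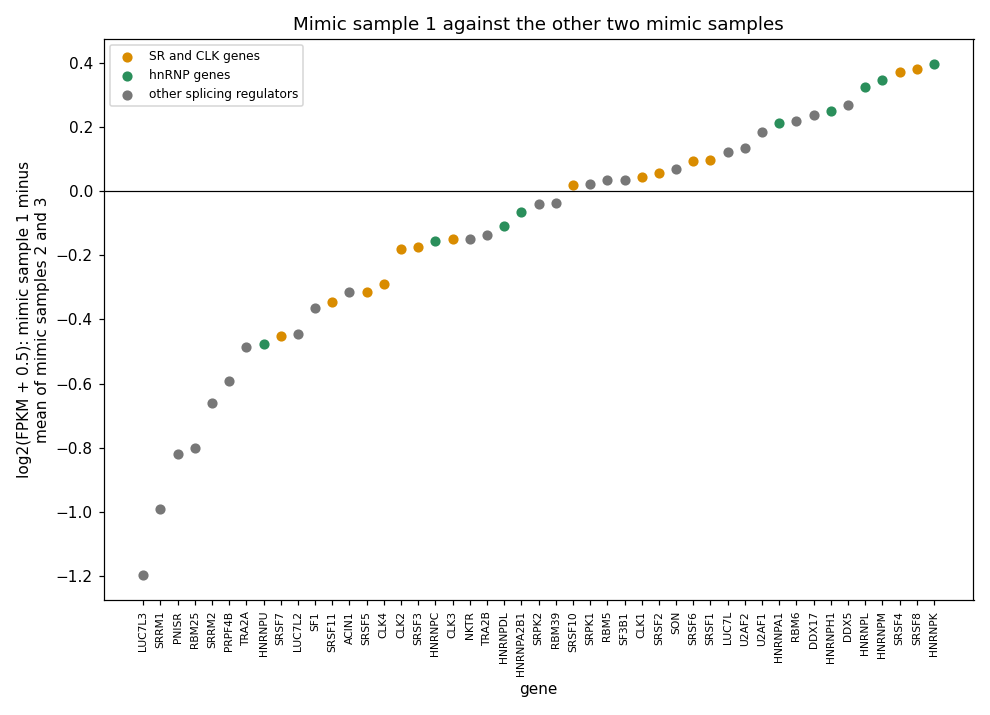
Log2(FPKM + 0.5) in mimic sample 1 minus the mean of mimic samples 2 and 3 for each tested member, ordered from lowest to highest and coloured by group. LUC7L3 at -1.20 and SRRM1 at -0.99 are lowest, and HNRNPK at 0.40 is highest.

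Both DEAD-box helicases, paralogs that unwind RNA and act in splicing and transcription, were lower. DDX5 had 129.9, 119 and 97.2 FPKM in mimic samples, against 276, 245 and 226 FPKM in NC samples. DDX17 had 113, 104 and 88.0 FPKM in mimic samples, against 319, 281 and 294 FPKM in NC samples. The log2 fold changes were -1.11 (SE 0.16, adjusted p = 0.000784) for DDX5 and -1.55 (SE 0.15, adjusted p = 0.000129) for DDX17, and neither gene's groups overlapped. RBM5, a regulator of exons in apoptosis genes, had 35.0, 35.9 and 32.4 FPKM in mimic samples, against 66.1, 60.8 and 60.2 FPKM in NC samples, a log2 fold change of -0.85 (SE 0.12, adjusted p = 0.000743). Its neighbour RBM6 had 23.4, 22.2 and 18.1 FPKM in mimic samples, against 28.7, 25.7 and 23.5 FPKM in NC samples, and its smaller difference of -0.29 (SE 0.15, adjusted p = 0.136) did not pass the test. The 2 genes lie on the same strand of chromosome 3 and share 11138 bases, from the start of RBM5 at 50088908 to the end of RBM6 at 50100045 (hg38), so the assignment of reads between them is uncertain.

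The factors that define the branch point and the 3′ splice site were divided. SF3B1, the U2 snRNP subunit that clamps the branch site, had 41.9, 46.2 and 36.2 FPKM in mimic samples, against 164, 131 and 138 FPKM in NC samples. On the log2 scale it differed by -1.79 (SE 0.15, adjusted p = 7.97e-05), next after NKTR and PNISR among the members. U2AF2, which binds the polypyrimidine tract, had 103, 97.6 and 90.0 FPKM in mimic samples, against 46.7, 46.7 and 43.0 FPKM in NC samples. Its log2 fold change of 1.08 (SE 0.13, adjusted p = 0.000272) was the highest of the members. Both calls held in all 18 alternatives tried. U2AF1, the partner of U2AF2 that reads the end of the intron, had 38.8, 35.4 and 32.8 FPKM in mimic samples, against 29.4, 32.4 and 31.6 FPKM in NC samples. All mimic samples were above all NC samples, but the log2 fold change of 0.19 (SE 0.13, adjusted p = 0.24) did not pass the test. With median-of-ratios scaling U2AF1 was called higher (0.51, adjusted p = 0.00624). A near-identical copy, U2AF1L5, is listed on the same chromosome at 37.7, 35.7 and 33.9 FPKM in mimic samples, against 29.4, 29.4 and 28.4 FPKM in NC samples, so U2AF1 reads may be split between the copies. SF1, which binds the branch point first, had 71.5, 95.8 and 88.7 FPKM in mimic samples, against 87.2, 77.4 and 92.2 FPKM in NC samples, and its log2 fold change of -0.01 (SE 0.15, adjusted p = 0.956) did not pass the test.

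Among other kinases that phosphorylate splicing factors, PRPF4B, a kinase of the assembling spliceosome, was lower, with 13.1, 22.8 and 17.6 FPKM in mimic samples, against 41.5, 41.2 and 46.4 FPKM in NC samples. All mimic samples were below all NC samples, at -1.28 (SE 0.20, adjusted p = 0.00102). SRPK1 had 23.0, 25.1 and 20.5 FPKM in mimic samples, against 20.1, 21.8 and 18.9 FPKM in NC samples, and SRPK2 had 11.4, 13.9 and 9.91 FPKM in mimic samples, against 14.6, 14.1 and 13.0 FPKM in NC samples. Both SRPK genes overlapped between groups and neither passed the test (0.17, SE 0.13, for SRPK1 and -0.25, SE 0.15, for SRPK2). On the median-of-ratios scale SRPK1 was called higher (0.49, adjusted p = 0.00583).

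Members were searched for matches to the seed of the transfected microRNA. The match words were ACTGTGAA (8mer), ACTGTGA (7mer-m8) and CTGTGAA (7mer-A1), searched on the transcript strand of the longest annotated 3′ UTR, and each gene was put in the first class that it held. Of 47 tested members 3 held an 8mer (6.38%), 4 a 7mer-m8 (8.51%), 5 a 7mer-A1 (10.6%) and 35 none (74.5%). Among 11465 tested genes with a 3′ UTR these shares were 6.55%, 10.9%, 11.5% and 71.1%. Of the 28 members called lower, 22 held no match (78.6%), against 2519 of 3748 tested genes called lower (67.2%). Over all tested genes, 41.4% of those with an 8mer and 30.9% of those with no match were called lower. Genes with a 7mer-m8 (36.8%) or a 7mer-A1 (35.0%) lay between. The median 3′ UTR length followed the same order, at 3215 bases with an 8mer, 2740.5 with a 7mer-m8, 2557 with a 7mer-A1 and 958 with no match. Whether the share lower differs between genes of equal 3′ UTR length was not tested. Members with no match that were called lower included SRSF6, SRSF10, SRSF5 and TRA2B. The 8mer genes NKTR and PNISR were the lowest of all members, and HNRNPA1, with the same 8 bases in its longest annotated 3′ UTR, had a log2 fold change of 0.06 (SE 0.15). NKTR and PNISR each held a further 7mer-m8. SF3B1 and SRSF1 held a 7mer-m8 and were lower, whereas HNRNPU and SRPK2 held one and were not called. The deposited table does not say which 3′ UTR these cells use.

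Other genes of the splicing pathway were taken from lists. The background for each list is the share among all genes tested, which was 39.6% called lower and 12.0% called higher as deposited. On the median-of-ratios scale 27.4% of all genes tested fell and 26.9% rose. Further SR-related and alternative splicing factors were lower in 20 of 41 tested genes and higher in 4, with a median of -0.53 (13 lower and 11 higher with a median of -0.21 after median-of-ratios scaling). On the latter scale this list lay near the shares over all genes tested. Of 11571 protein-coding genes tested, 2358 were lower and 3678 higher on that scale. Called lower by at least 1 there were 8 of the 41 listed genes, against 722 of the protein-coding ones. CCNL1, a cyclin of speckles with an arginine- and serine-rich domain, had 22.9, 29.3 and 21.7 FPKM in mimic samples, against 151, 133 and 155 FPKM in NC samples. CCNL1 differed by -2.56 (SE 0.15, adjusted p = 2.32e-05), close to that of NKTR, and its relative CCNL2 (-1.83) and RSRP1 (-1.85) also fell. RBM10, a relative of RBM5, rose (0.77, SE 0.12), as did PPP1R8 (0.56), a regulator of a protein phosphatase, and SCAF1 (0.65), whose call was lost after GC and length correction. Core snRNP and spliceosome genes had 13 of 42 higher and 3 lower, with a median of 0.14 (28 higher, none lower and a median of 0.46 after median-of-ratios scaling). Among them SF3A1, a U2 snRNP subunit, rose by 1.31, SNRPC, a U1 snRNP protein, by 0.99 and the ubiquitin ligase PRPF19 by 0.98, while the helicase genes AQR (-0.72) and DDX46 (-0.51) and SF3B6 (-0.37) were lower. Those 3 falls were not called after median-of-ratios scaling, and after GC and length correction SF3B6 was at 0.015. By limma, DDX46 was also lost without NC sample 1 (adjusted p = 0.0806) and SF3B6 in every fit without 1 sample except that without mimic sample 1 (adjusted p = 0.0264 to 0.159 over the 6).

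Further hnRNP and related genes had 4 of 26 higher and 3 lower, with a median of 0.02 (15 higher, none lower and a median of 0.34 after median-of-ratios scaling). HNRNPUL1 (1.05), KHSRP (0.86) and ELAVL1 (0.74) rose, and PTBP2 (-0.63), HNRNPH3 (-0.52) and HNRNPD (-0.39) were lower, calls that were all lost after median-of-ratios scaling and after GC and length correction. The HNRNPH3 call was lost without NC sample 1 or 2 and that of HNRNPD without mimic sample 1 or 2 or NC sample 1 or 2 (adjusted p up to 0.0862 and 0.144). Exon junction complex and nonsense-mediated decay genes, which act on transcripts with poison exons, had 4 of 17 higher and 5 lower, with a median of 0.03 (7 higher and 2 lower with a median of 0.35 after median-of-ratios scaling). As deposited, their share called lower was near the 32.7% of protein-coding genes and below the 39.6% of all genes tested. The helicase UPF1 rose by 0.88 (SE 0.19). SMG8, a regulator of the UPF1 kinase, was lower (-1.15), as was the exon junction component MAGOH (-0.70). UPF3A (-0.73), UPF3B (0.49) and the endonuclease SMG6 (0.42) were called by small margins. Each of these 3 calls was lost in at least 4 of the 6 fits without 1 sample (highest adjusted p 0.0772, 0.078 and 0.105 in that order).

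Long RNAs listed as nuclear were lower as well. All 7 tested of 9 listed were lower, with a median of -1.74 (5 lower and a median of -1.42 after median-of-ratios scaling). The share lower was 39.6% over all genes tested and 32.7% over protein-coding ones (27.4% over all genes after that scaling). Genes other than protein-coding ones were thus called lower more often. Whether the listed RNAs fell more than other noncoding genes was not tested. MALAT1, a speckle RNA, had 20.2, 24.1 and 26.6 FPKM in mimic samples, against 147, 117 and 166 FPKM in NC samples. NEAT1, the paraspeckle scaffold, had 89.1, 71.8 and 56.5 FPKM in mimic samples, against 342, 277 and 242 FPKM in NC samples. TUG1, a long noncoding RNA, had 18.3, 25.6 and 26.9 FPKM in mimic samples, against 76.9, 75.0 and 85.9 FPKM in NC samples. None of these overlapped between groups, with log2 fold changes of -2.57, -1.99 and -1.74 in that order. KCNQ1OT1, MEG3, OIP5-AS1, FTX, PVT1 and NORAD complete the list, and not all of its RNAs are confined to the nucleus. Whether a change in the share of nuclear RNA plays a part in the fall of the SR-related genes was not tested.

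**Figure D5:**
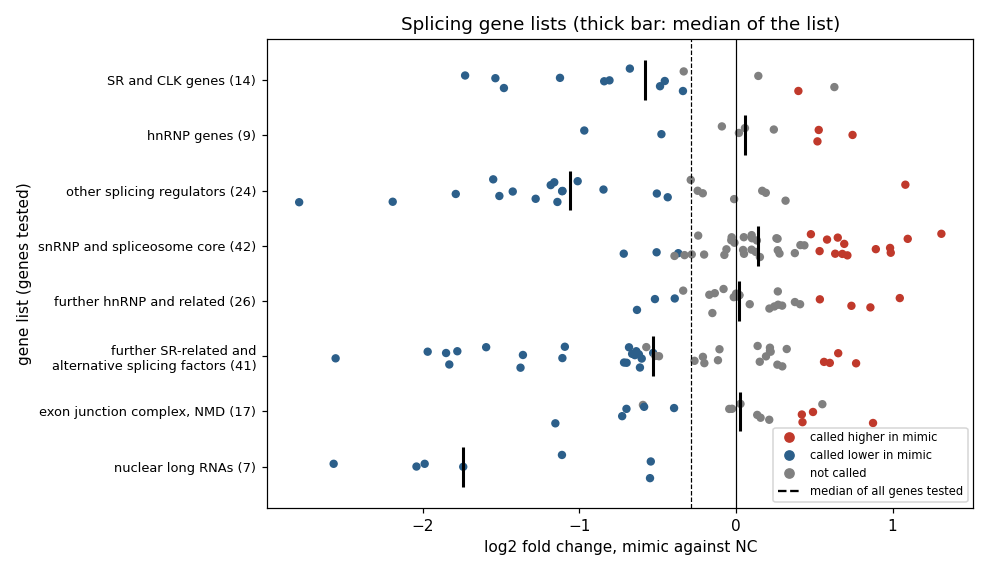
Log2 fold change of each tested gene, mimic against NC, in the members and in the other splicing gene lists (points, coloured by call), with the median of each list as a thick bar and the median of all genes tested, -0.29, as a dashed line. SR and CLK genes have a median of -0.58, hnRNP genes of 0.06, core snRNP genes of 0.14 and long RNAs listed as nuclear of -1.74.

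Members that were lower had a lower median GC content than those that were higher, although the 2 sets overlapped. HNRNPA2B1, with 38.4% GC, was called higher, and SRRM2, with 56.2%, was called lower. The median GC content of the longest coding transcript was 42.7% for members called lower, 54.9% for the 5 called higher and 44.6% for those not called, against 48.7% over all genes tested. Spearman's rho of the log2 fold change with GC content was 0.36 across the 47 members and 0.27 across all tested genes with a transcript. Genes are not independent replicates, so these values describe the set only. The medians of SR and CLK genes and of hnRNP genes were close, at 42.5% and 43.0%. After each sample was corrected for GC content and transcript length, 27 members were lower and 5 higher, and the difference of medians between SR and CLK and hnRNP genes was -0.70.

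At least 1 annotated transcript with a retained intron is listed in GENCODE 29 for 41 of 47 tested members (87.2%), against 58.9% of tested protein-coding genes. Spearman's rho of their number with the log2 fold change was -0.02 across the 47 members. NKTR and SRRM2 have 13 each and fell, while SRSF6, PNISR and SRSF11 have none and fell as well. Annotated transcripts are not measured ones, and the deposited values give no level for an intron. Several members overlap other listed genes, among them SON with DONSON (17940 bases) and CLK3 with EDC3 (14857 bases) on the opposite strand and U2AF2 with an antisense gene (12815 bases). Sources used here do not give the strand setting of the counting, so part of their signal may come from the partner.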

How the data were processed

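Total RNA from 3 mimic and 3 NC samples was sequenced on Illumina libraries made with a dual-mode mRNA kit, per the labels' protocols. The authors deposited 1 FPKM value per gene and sample, per the file headers. The submitters' processing notes name FastQC, HISAT2 and, as the build, hg38. No quantifier, annotation release or strand setting was found in the labels or headers. Tables of the 6 single samples held the same values as the series table, which was used.

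Groups were taken from the sample titles. Genes whose mean over all 6 samples reached 1 FPKM (14439) entered limma-trend (limma 3.58.1, R 4.3.3) with robust moderation on log2(FPKM + 0.5), with no covariate and with Benjamini-Hochberg adjustment at 0.05 over all of them. The step was tested on simulated data. Read numbers are not given, so no counting interval is given.

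The members, classes and gene lists were chosen with earlier results of these data known. Values per sample are given for all tested CLK, SR and hnRNP genes, and for up to 5 members with the smallest p in each other class. LUC7L3, SRRM1, SRRM2 and RBM25 were added after their values were seen. From each list, up to 3 called genes per direction were named. Seed matches, transcript length and GC content came from GENCODE 29, and microRNA sequence from RefSeq.

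Alternatives were median-of-ratios scaling, quantile normalization, totals without mitochondrial genes, correction for GC content and length (natural splines with 5 degrees of freedom per sample), pseudocounts of 0.1 and 1, no filter, a mean of at least 5 FPKM, the replicate number as a block with and without that correction, limma without robust moderation, and leaving out each sample or sample 3 of both groups.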

Additional observations from a re-analysis of the deposited data

How the results depend on the processing

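The difference of medians between SR and CLK genes and hnRNP genes stayed between -0.53 and -0.72 in all 18 alternatives, and no called member reversed direction. Some members that were not called, such as HNRNPU and ACIN1, changed sign. With median-of-ratios scaling 3889 genes were higher, 12 members were higher, 6 SR and CLK genes were lower, 5 hnRNP genes were higher, and the median log2 fold change of members was -0.17. With quantile normalization 3592 genes were higher and 3289 lower. With no filter 8755 genes were lower, and with a mean of at least 5 FPKM 2916, since other genes were then tested. Leaving out each sample in turn gave 2 to 6 members higher, 22 to 26 members lower, 1 to 3 hnRNP genes higher, 7 to 9 SR and CLK genes lower, 1256 to 1822 genes higher and 4695 to 5732 lower. Of the 28 members called lower 18 kept their call in all alternatives, as did 2 of the 5 called higher, HNRNPM and U2AF2. SF3B6 was at 0.015 after GC and length correction, with and without the block. The cause was not tested for any of these changes.

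The replicate numbers were not shown to pair the samples: deviations of samples with the same number correlated at 0.177, -0.0467 and 0.223. Those of samples with different numbers correlated at -0.281 to 0.126, so pairing for numbers 1 and 3 was not excluded. With the replicate block 5 members were higher and 27 lower, and 2117 genes were higher and 5994 lower, and the only member to lose its call was TRA2A (adjusted p = 0.0648). After GC and length correction within the blocked fit these were 6, 29, 1772 and 5951. Whole read counts per gene could not be recovered, so no counting error is given for the lowest values, such as those of SRSF12.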
